A study of Homo sapiens with 12 samples.

Results

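The 9 mucin genes MUC1, MUC4, MUC13, MUC16, MUC20, MUC2, MUC5AC, MUC5B and MUC6 were chosen by their symbols, and each was found once among the 58302 genes measured. MUC1, MUC4, MUC13, MUC16 and MUC20 encode membrane-bound mucins, and MUC2, MUC5AC, MUC5B and MUC6 encode secreted mucins. Their RNA was measured by sequencing of total RNA in 4 human pancreatic cancer cell lines with 3 libraries each, 12 in all. The parental lines BxPC-3 and CFPAC-1 were labelled sensitive to gemcitabine (GEM), a nucleoside drug that blocks DNA synthesis, and the resistant lines derived from them are named BxPC-3-GR and CFPAC-1-GR. BxPC-3, CFPAC-1 and CFPAC-1-GR were labelled epithelial in morphology and BxPC-3-GR mesenchymal. Each resistant line is the surviving population of 1 course of rising GEM doses, with regrowth free of the drug between the steps. By the methods of the study, the doses were higher for BxPC-3 than for CFPAC-1. Nothing in the sources says that the 3 libraries of a line came from separate cultures, so p values measure the spread between these libraries, which may be technical. The sample records name the same culture medium for every line, while the methods of the study give another medium for CFPAC-1.

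Values are FPKM, fragments scaled by gene length and by library depth, and the implied depth was 12600000 to 25200000 fragments per library (median 18400000). All 5 epithelial markers examined (EPCAM, CDH1, KRT8, KRT18 and KRT19) averaged at least 1 FPKM in every line. The leukocyte marker PTPRC was listed at 0 in all 12 libraries, and CD68 was the leukocyte marker of 5 that reached 1 FPKM. Of 5 mesenchymal markers, CDH2, FN1 and SNAI2 averaged at least 1 FPKM in BxPC-3-GR and VIM and ZEB1 did not, while in the other 3 lines VIM did as well, and the summed level of the list was lowest in BxPC-3-GR (37.4 to 39.5 FPKM, against 51.9 to 57.5 in BxPC-3).

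Mucins are long glycoproteins with a central region rich in serine and threonine, the residues to which O-linked glycans are attached. Membrane-bound mucins are anchored by a transmembrane segment and shed a large extracellular part, and MUC16 carries the CA125 antigen. Gel-forming secreted mucins are assembled into networks through their cysteine-rich ends. MUC5AC is the mucin of the gastric surface, MUC6 that of gastric glands, MUC2 the main mucin of intestinal mucus, and MUC5B a mucin of airways and salivary glands. MUC4 and MUC5AC are known from precursor lesions and tumors of the pancreatic duct and are scarce in normal ducts.

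Tandem repeats of the region that carries the glycans, found in some of the members, are shown because a fragment that falls in a repeat can be placed at several positions of 1 gene. The most frequent unit was read from the coding part of the longest GENCODE 29 transcript, 5' to 3', and capitals mark codons for serine or threonine.
MUC1: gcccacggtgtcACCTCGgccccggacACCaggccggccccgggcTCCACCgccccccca
MUC4: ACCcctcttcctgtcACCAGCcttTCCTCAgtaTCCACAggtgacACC
MUC20: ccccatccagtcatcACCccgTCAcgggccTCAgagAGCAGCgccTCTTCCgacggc
MUC5AC: gctcctACAACCAGCACAACCTCT
MUC5B: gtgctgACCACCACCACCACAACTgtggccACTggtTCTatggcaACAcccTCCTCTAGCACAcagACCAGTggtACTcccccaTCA
The MUC1 unit of 60 bases encodes 20 residues, 5 of them serine or threonine, and the unit was present in 19 exact copies. The MUC4 unit of 48 bases had 14 exact copies and 189 with at least 80% identity. In the MUC5AC unit of 24 bases, 6 of 8 codons stand for serine or threonine. Repeats of this kind covered 69.4% of the coding length of MUC1, 59.7% of MUC4, 35.1% of MUC20, 24.4% of MUC5AC and 4.20% of MUC5B. MUC16 had a long period of 468 bases over 12.2% of its coding length and MUC6 one of 507 bases over 30.8%, neither with a unit in more than 1 exact copy, and MUC13 had none at this identity. Over the whole coding sequence, serine and threonine codons made up 24% in MUC13, 26.1% in MUC1, 36.0% in MUC16 and 38.3% in MUC4, and MUC13 was the lowest and MUC4 the highest of the 8 genes read. The codons of MUC2 were not used.

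The members also differed in how far their sequence could be told from other genes. Of the windows of 31 bases in the longest transcript, 74.6% in MUC20 were also found in other genes, mainly MUC20-OT1, which overlaps it on the same strand, and the pseudogene MUC20P1. The share was 3.12% in MUC5B, 0.729% in MUC5AC and 0.435% in MUC1, and no such window was found for MUC16 or MUC13. Values of MUC20 are therefore uncertain. MUC20P1 had means of 0.11 FPKM in BxPC-3, 1.13 in BxPC-3-GR, 0.917 in CFPAC-1 and 2.45 in CFPAC-1-GR. MUC20-OT1, measured under the name LINC00969, was listed at 0 in every library.

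The members lie on 4 chromosomes (GRCh38). MUC1 (ENSG00000185499) is at chr1:155185824-155192916 on the minus strand, MUC16 (ENSG00000181143) at chr19:8848844-8981342 on the minus strand and MUC13 (ENSG00000173702) at chr3:124905442-124953819 on the minus strand. MUC20 (ENSG00000176945), at chr3:195720882-195741123 on the plus strand, and MUC4 (ENSG00000145113), at chr3:195746765-195812277 on the minus strand, are neighbours. The secreted mucins form 1 cluster, with MUC6 (ENSG00000184956) at chr11:1012821-1036706 on the minus strand. MUC2 (ENSG00000198788) at chr11:1074875-1110511, MUC5AC (ENSG00000215182) at chr11:1157953-1201138 and MUC5B (ENSG00000117983) at chr11:1223066-1262172 follow on the plus strand.

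The sequence before the start is shown for MUC1 and MUC2, the most abundant membrane-bound and secreted members of BxPC-3, of which MUC1 was higher in BxPC-3-GR and MUC2 overlapped. It comes from RefSeq (GRCh38.p14), 5' to 3' on the strand of the gene, for MUC1 at chr1:155192917-155193165 (minus strand) and for MUC2 at chr11:1074624-1074873 (plus strand), and capitals mark matches to a motif on either strand.
MUC1: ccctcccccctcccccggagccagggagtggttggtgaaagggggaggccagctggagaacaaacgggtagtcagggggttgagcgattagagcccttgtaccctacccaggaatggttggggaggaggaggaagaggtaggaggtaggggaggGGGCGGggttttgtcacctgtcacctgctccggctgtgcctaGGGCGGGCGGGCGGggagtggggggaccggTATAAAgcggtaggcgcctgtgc
MUC2: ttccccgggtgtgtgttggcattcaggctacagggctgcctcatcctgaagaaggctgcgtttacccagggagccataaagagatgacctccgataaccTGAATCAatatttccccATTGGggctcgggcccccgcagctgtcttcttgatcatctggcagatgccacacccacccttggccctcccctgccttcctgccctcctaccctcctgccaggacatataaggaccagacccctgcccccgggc
The MUC1 window has 1 TATAAA and 4 GGGCGG, 3 of which overlap each other. The MUC2 window has 1 CCAAT and 1 TGANTCA and no exact TATAAA. Of 35116 windows of 250 bases before the starts of all genes, 10.7% held TATAAA, 42.6% GGGCGG, 32% CCAAT and 6.57% TGANTCA. TTCNNNGAA (6.57%), AGATAA (9.17%) and TGTTTAC (2.98%) were also searched and had no match in either window. These matches are a description of letters and do not show a factor at work. RefSeq starts were found for 5 of 9 members, and those of MUC16 lie outside the locus measured here.

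Levels of different genes were compared on FPKM recomputed with the joined exon length, because the values as deposited followed the summed length of distinct exons, which is 2.15 times longer for MUC1 and 2.38 times for MUC20 but 1.01 times for MUC16. On this scale the 9 genes summed to 2.12 ± 0.197 in BxPC-3 (SD, n = 3), 29.6 ± 0.472 in BxPC-3-GR, 27.4 ± 5.91 in CFPAC-1 and 25.3 ± 2.37 in CFPAC-1-GR. BxPC-3 stood below the other lines in all 3 libraries. The sums of CFPAC-1, from 20.7 to 31.8, included the range of CFPAC-1-GR. Membrane-bound mucins made up 52.7% ± 4.22 of the sum in BxPC-3, 82.3% ± 0.592 in BxPC-3-GR, 73.0% ± 3.67 in CFPAC-1 and 92.8% ± 1.52 in CFPAC-1-GR (SD, n = 3). The libraries of each resistant line lay above those of its parental line. Sums and shares were not corrected for GC content, which the changes over all genes in the CFPAC-1 lines followed (described below).

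**Figure D1:**
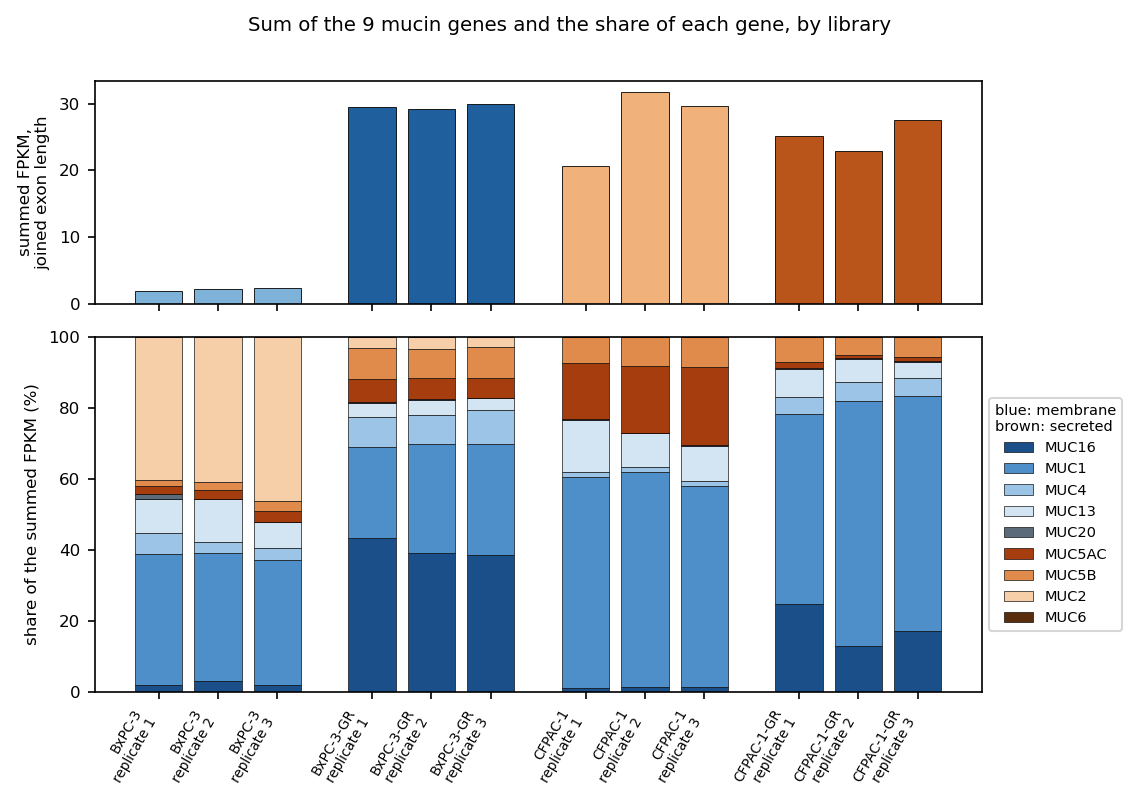
Summed FPKM of the 9 mucin genes on joined exon length (upper panel, coloured by line) and the share of each gene in that sum in percent (lower panel, blue for membrane-bound and brown for secreted genes), with 1 bar per library. BxPC-3 has the smallest sums, MUC16 takes 40.3% of the sum in BxPC-3-GR against 2.46% in BxPC-3, and the secreted share is smallest in CFPAC-1-GR.

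The leading mucin differed between the lines on the same scale. In BxPC-3, MUC2 (0.903 ± 0.146) and MUC1 (0.760 ± 0.0578) came first with overlapping ranges, then MUC13 (0.204 ± 0.0513), and MUC4, MUC5AC, MUC16 and MUC5B followed between 0.0497 and 0.0858 with each overlapping the next. In BxPC-3-GR, MUC16 (11.9 ± 0.781) stood above MUC1 (8.63 ± 0.947), and MUC4 (2.62 ± 0.262) overlapped MUC5B (2.52 ± 0.155). MUC16 lay above 12.1% of the detected protein-coding genes in BxPC-3 and above 77.1% in BxPC-3-GR. In CFPAC-1, MUC1 (16.1 ± 3.51) stood above MUC5AC (5.26 ± 1.76), MUC13 (2.99 ± 0.0655) and MUC5B (2.21 ± 0.587), each above the next in all 3 libraries. In CFPAC-1-GR, MUC1 (15.8 ± 2.38) stood above MUC16 (4.68 ± 1.61), and MUC13, MUC5B and MUC4, from 1.58 down to 1.25, overlapped their neighbours in that order. MUC5AC moved from the second place in CFPAC-1 to the sixth, with 0.298 ± 0.157. MUC2, leading in BxPC-3, came seventh in BxPC-3-GR with 0.936 ± 0.0787. MUC20 did not average above 0.0834 in any line, and MUC6 was listed at 0 in 11 libraries and had 2 fragments in BxPC-3-GR replicate 3.

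**Figure D2:**
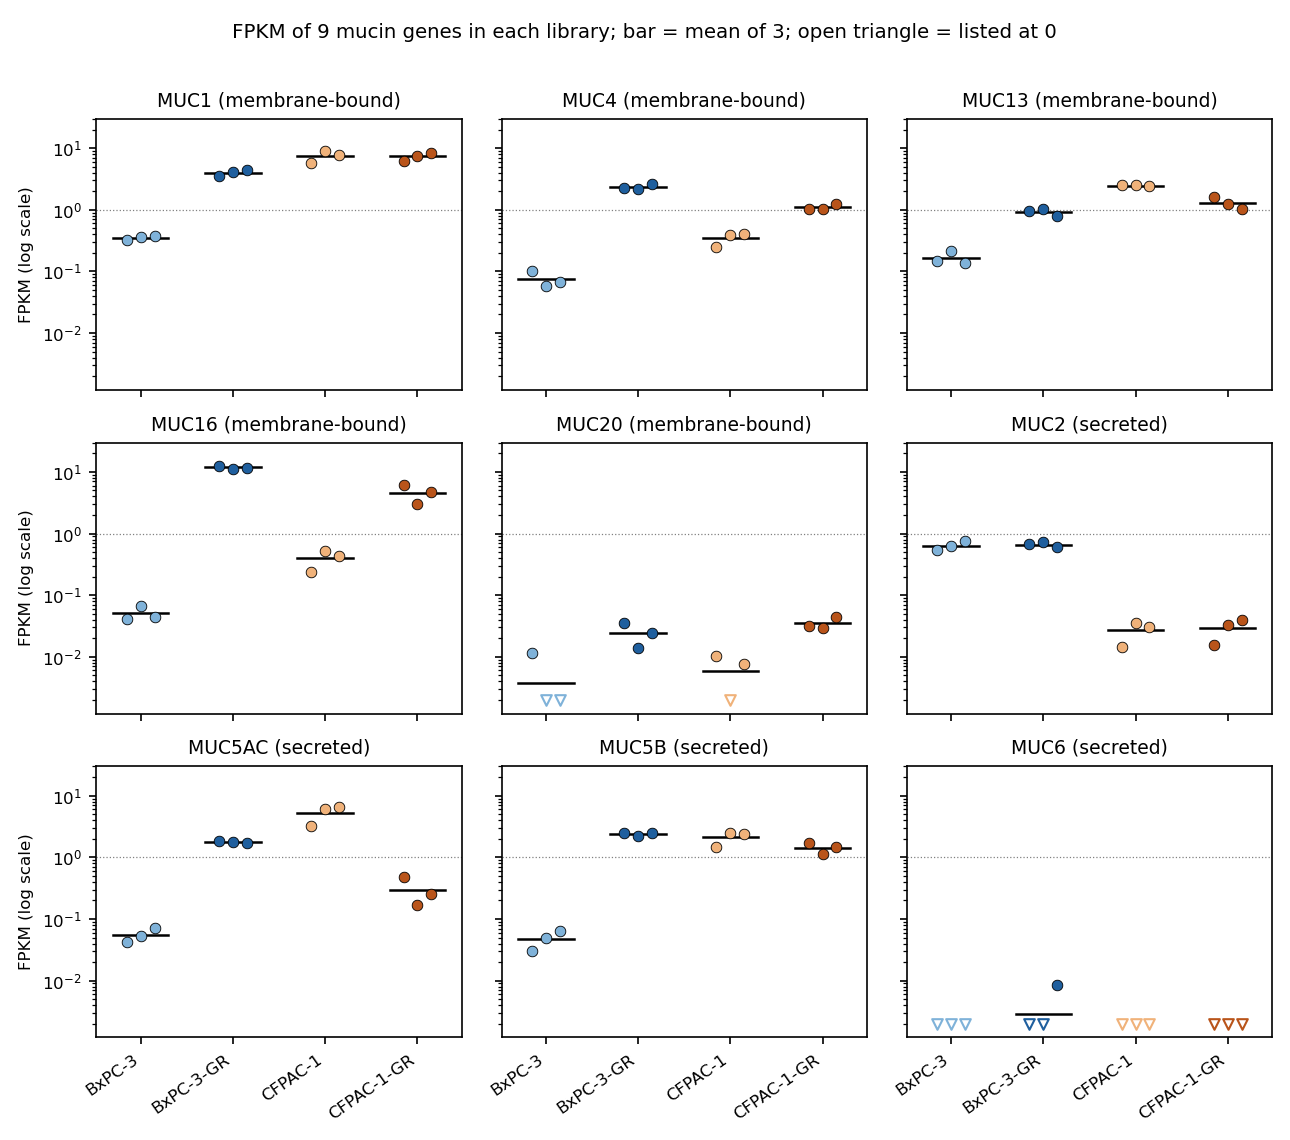
FPKM as deposited (log axis) of each mucin gene in each of the 12 libraries, grouped by line, with a bar at the mean of 3 and an open triangle where a gene was listed at 0. In BxPC-3-GR all 3 libraries lie above BxPC-3 for 7 of the 9 genes, whereas in CFPAC-1-GR MUC16, MUC4 and MUC20 lie above CFPAC-1 and MUC5AC and MUC13 below it.

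The comparison of BxPC-3-GR with BxPC-3 asks which mucins differ in the line with acquired GEM resistance. Mucin RNA was higher in the resistant line for MUC1, MUC4, MUC13 and MUC16 among the 5 membrane-bound members and for MUC5AC and MUC5B among the 4 secreted ones. MUC16 was farthest apart. MUC20 was listed higher as well, but on 18 fragments against 2 and with most of its sequence shared, so its difference is uncertain. Of the 9 genes, the 3 libraries of BxPC-3-GR lay above the 3 of BxPC-3 for 7, and 2 (MUC2 and MUC6) overlapped. Of 28777 genes above 0 in at least 1 library, 20.1% were higher in this way and 23.0% lower. In RNA of whole cultures, more RNA in each cell and more cells with the RNA cannot be told apart.

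Among the membrane-bound members, MUC16 had 0.0416, 0.0679 and 0.0450 FPKM in the BxPC-3 libraries and 12.7, 11.2 and 11.5 in BxPC-3-GR. The parental libraries held 32 to 59 implied fragments of MUC16 and the resistant ones 10748 to 14147, and the means differed 229-fold. MUC4 had 0.103, 0.0572 and 0.0681 FPKM in BxPC-3 and 2.25, 2.13 and 2.58 in BxPC-3-GR. The 2 groups were 30.5-fold apart in their means. MUC1, a mucin with a signaling cytoplasmic tail, had 0.323, 0.361 and 0.375 FPKM in BxPC-3 and 3.51, 4.15 and 4.36 in BxPC-3-GR, 11.3-fold more. MUC13, a mucin of gastrointestinal epithelium with epidermal growth factor-like domains, had 0.149, 0.215 and 0.138 FPKM in BxPC-3 and 0.952, 1.02 and 0.785 in BxPC-3-GR, 5.5-fold more. MUC20 rested on 2 fragments in BxPC-3 and 18 in BxPC-3-GR over the 3 libraries, a ratio of 6.41 with a 95% counting interval of 1.63 to 60.4.

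Among the secreted members, MUC5B had 0.0298, 0.0501 and 0.0636 FPKM in BxPC-3 and 2.53, 2.26 and 2.5 in BxPC-3-GR. MUC5AC had 0.0429, 0.0526 and 0.0705 FPKM in BxPC-3 and 1.86, 1.79 and 1.69 in BxPC-3-GR. Both groups were apart, 50.8-fold in the means of MUC5B and 32.2-fold in those of MUC5AC. MUC2 had 0.543, 0.624 and 0.749 FPKM in BxPC-3 and 0.666, 0.716 and 0.605 in BxPC-3-GR, and the ranges overlapped.

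A gene was upregulated or downregulated where limma on log2(FPKM + 1) gave a log2 fold change (log2FC) beyond 1 in either direction and a p below 0.05 after Benjamini-Hochberg adjustment. The test was restricted to genes that averaged 1 FPKM or more across both lines. On this scale the change of low genes is understated. MUC16 (log2FC 3.61, 95% interval 3.46 to 3.75, adjusted p = 1.25e-06), MUC1 (1.88, 1.70 to 2.07, adjusted p = 1.28e-05), MUC5B (1.71, 1.58 to 1.84, adjusted p = 5.13e-06) and MUC4 (1.62, 1.46 to 1.78, adjusted p = 1.28e-05) were upregulated. These 4 were the members tested, and each passed the minimum only through BxPC-3-GR, so their number is a description, beside 7.76% of 11710 genes called in either direction, 4.14% upregulated and 3.62% downregulated. With a minimum mean of 0.1 FPKM, which tested 7 members and called 4.95% of all genes, MUC5AC was upregulated as well (1.40, 1.28 to 1.51, adjusted p = 1.48e-05). MUC13 had a log2FC of 0.72 (0.56 to 0.88, adjusted p = 0.000396), under the criterion of 1. MUC2 had 0.02, and the interval of -0.13 to 0.18 bounds its difference on log2(FPKM + 1) only. Without BxPC-3-GR replicate 1 or replicate 3, MUC4 and MUC5B fell below the minimum of 1 FPKM and 2 members remained tested.

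The comparison of CFPAC-1-GR with CFPAC-1 asks the same of the second line. The mucins went in different directions there, with MUC16 higher, MUC5AC lower and MUC1 overlapping. Over all 9 genes, 3 (MUC4, MUC16 and MUC20) were higher in every CFPAC-1-GR library, 2 (MUC13 and MUC5AC) were lower and 4 overlapped. Of 29966 genes above 0 in at least 1 library, 34.6% were higher in this way and 18.8% lower.

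MUC16 had 0.241, 0.514 and 0.435 FPKM in the CFPAC-1 libraries and 6.16, 2.98 and 4.76 in CFPAC-1-GR, 11.7-fold more. Replicate 2 was the lowest of the resistant libraries and still above every parental library. MUC4 had 0.25, 0.392 and 0.398 FPKM in CFPAC-1 and 1.03, 1.04 and 1.25 in CFPAC-1-GR, 3.19-fold more. MUC13 had 2.5, 2.48 and 2.4 FPKM in CFPAC-1 and 1.61, 1.23 and 1.04 in CFPAC-1-GR, 1.9-fold less. MUC1 had 5.7, 8.9 and 7.81 FPKM in CFPAC-1 and 6.26, 7.35 and 8.47 in CFPAC-1-GR, so that the parental range held all 3 resistant libraries. MUC20 rested on 3 fragments in CFPAC-1 and 19 in CFPAC-1-GR, a ratio of 5.88 with a counting interval of 1.54 to 27.5.

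MUC5AC had 3.25, 6 and 6.53 FPKM in CFPAC-1 and 0.473, 0.171 and 0.251 in CFPAC-1-GR, 17.6-fold less. The highest resistant library was below the lowest parental library. MUC5B, its neighbour on chromosome 11, had 1.47, 2.49 and 2.41 FPKM in CFPAC-1 and 1.68, 1.12 and 1.49 in CFPAC-1-GR, with overlapping ranges. MUC2 was near the floor of the measurement, at 0.0144, 0.0354 and 0.0305 FPKM in CFPAC-1 and 0.0154, 0.0326 and 0.0395 in CFPAC-1-GR. CFPAC-1 replicate 1 was the lowest of its line for MUC1, MUC4, MUC16, MUC5AC, MUC5B and MUC2 and also the deepest.

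By limma, MUC16 was upregulated (log2FC 1.98, 95% interval 1.47 to 2.48, adjusted p = 0.000115) and MUC5AC downregulated (-2.23, -2.76 to -1.70, adjusted p = 8.25e-05). They were 2 of 5 members tested, beside 32.2% of 12051 genes, 20.5% upregulated and 11.7% downregulated, but each passed the minimum only through the line in which it was high, so this number too is a description. The split over all genes depended on the scaling of the libraries, with 14.1% up- and 19.6% downregulated under median-of-ratios scaling and 11.4% and 24.1% under upper-quartile scaling, and MUC16 and MUC5AC kept their calls under both. MUC13 had a log2FC of -0.60 (-0.84 to -0.36, adjusted p = 0.00114), under the criterion of 1. MUC1 had -0.01 (-0.40 to 0.39, adjusted p = 0.962) and MUC5B -0.35 (-0.73 to 0.02, adjusted p = 0.0750). With a minimum mean of 0.1 FPKM, at which 19.2% of genes were called, MUC4 had 0.65 (0.46 to 0.83, adjusted p = 0.000410).

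**Figure D3:**
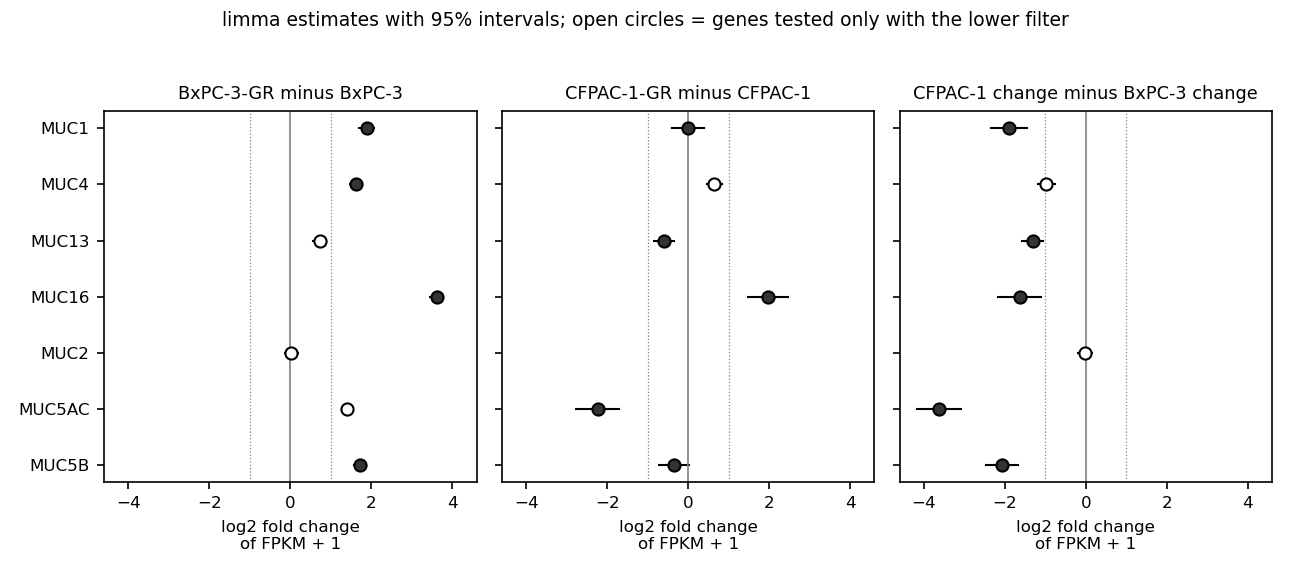
log2 fold change of FPKM + 1 by limma for the mucin genes tested (rows), with 95% intervals as bars. The panels show BxPC-3-GR against BxPC-3, CFPAC-1-GR against CFPAC-1 and the difference of response between the lines. MUC20 and MUC6 were not tested and are not drawn. Open circles mark genes tested only with the minimum mean of 0.1 FPKM. MUC16 is above 0 in both resistant lines (3.61 and 1.98), while MUC5AC is at 1.40 in BxPC-3-GR and at -2.23 in CFPAC-1-GR.

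In the CFPAC-1 lines the changes over all genes followed base composition. Spearman's rho between GC content and log2FC was -0.777 over 12030 genes in CFPAC-1-GR against CFPAC-1 and 0.0388 in BxPC-3-GR against BxPC-3, as a description across genes. It was 0.628 in CFPAC-1 against BxPC-3 and -0.0189 in CFPAC-1-GR against BxPC-3-GR. The trend was thus marked only where the parental CFPAC-1 libraries were compared, and its cause was not tested. The members span 44.7% GC (MUC13) to 71.2% (MUC1), with 50.3% in MUC16, 60.3% in MUC5AC and 64.5% in MUC5B. Among genes within 1% of its GC content, 99.3% had a lower log2FC than MUC16 and 0.271% a lower one than MUC5AC in CFPAC-1-GR. For MUC13 the share was 3.33%, around a median of 0.65. MUC1 was above 90.0% of its 20 neighbours in GC content, whose median was -1.04, and MUC5B above 86.6%, around a median of -1.05.

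After a correction by splines on GC content and length, MUC16 (1.39) stayed upregulated and MUC5AC (-1.86) downregulated in CFPAC-1-GR, with adjusted p = 0.000345 and 0.000430. MUC13 passed the criterion at -1.14 (adjusted p = 0.000167). MUC1 turned to 0.84 (adjusted p = 0.00218), under the criterion, and MUC5B to 0.14. In BxPC-3-GR the 4 members tested kept values between 1.40 and 3.17 and stayed upregulated.

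**Figure D4:**
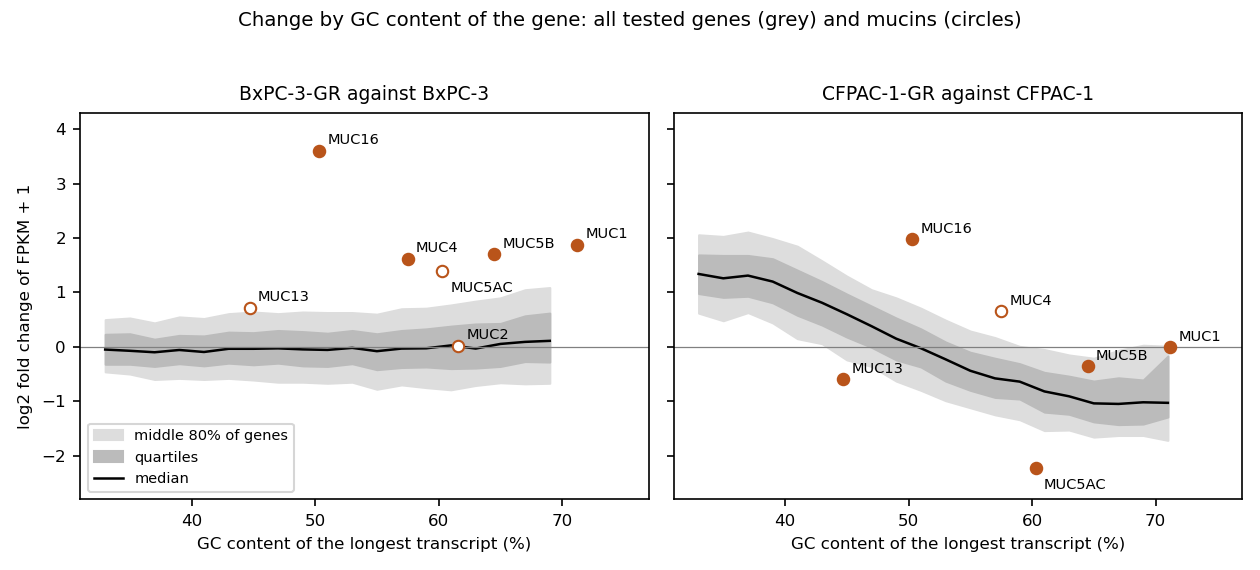
log2 fold change of FPKM + 1 against the GC content of the longest transcript (percent) for all tested genes (grey bands for the middle 80% and the quartiles, line for the median) and the mucins (circles, open where tested only with the minimum mean of 0.1 FPKM), for the resistant against the parental line of each pair. In the CFPAC-1 lines the grey median falls with GC content, and MUC16 (1.98) lies above it and MUC5AC (-2.23) and MUC13 (-0.60) below it.

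The parental lines were compared to place these changes. CFPAC-1 had more RNA of 6 members than BxPC-3 in every library and less MUC2, beside 27.6% and 31.4% of 29350 genes. The means of MUC5AC differed 95-fold, those of MUC5B 44.4-fold, those of MUC1 21.2-fold, those of MUC13 14.7-fold, those of MUC16 7.7-fold and those of MUC4 4.56-fold. MUC2 was 23.9-fold lower in CFPAC-1. MUC1 (log2FC 2.63, 95% interval 2.29 to 2.97), MUC5AC (2.52, 2.01 to 3.04), MUC13 (1.57, 1.44 to 1.70) and MUC5B (1.56, 1.23 to 1.89) were upregulated in CFPAC-1 by limma, with adjusted p between 5.64e-07 and 4.32e-05, beside 44.5% of all genes in either direction, 19.8% higher and 24.7% lower in CFPAC-1 (after median-of-ratios scaling 23.3% and 21.4%, after upper-quartile scaling 26.5% and 19.3%). All 4 passed the minimum only through CFPAC-1, so their number is a description. Without CFPAC-1 replicate 2 or replicate 3, MUC5B fell below the minimum mean. With a minimum mean of 0.1 FPKM, at which 28.3% of genes were called, MUC16 (0.40), MUC4 (0.32) and MUC2 (-0.67) were under the criterion. GC content moved with this comparison as well (rho 0.628), and after the correction MUC5B was at 0.93, under the criterion.

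Between the resistant lines the order was partly the other way. MUC16 (log2FC -1.22, 95% interval -1.71 to -0.74, adjusted p = 0.00180) and MUC5AC (-1.10, -1.33 to -0.88, adjusted p = 8.03e-05) were lower in CFPAC-1-GR than in BxPC-3-GR, beside 17.1% of genes called, 10.3% higher and 6.80% lower (after median-of-ratios scaling 8.09% and 9.07%, after upper-quartile scaling 8.20% and 8.66%). MUC5AC passed the minimum only through BxPC-3-GR. Without CFPAC-1-GR replicate 2, MUC16 was at -0.99 and no longer passed, and without any 1 of the BxPC-3-GR libraries MUC5AC fell below the minimum mean. MUC1 (0.73), MUC4 (-0.65), MUC5B (-0.50) and MUC13 (0.25) were under the criterion. MUC2 was 22.7-fold lower in CFPAC-1-GR, and the ranges of the 2 lines were apart.

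Whether the 2 lines responded differently was tested as the change in the CFPAC-1 lines minus the change in the BxPC-3 lines over all 12 libraries. The selecting doses of GEM were higher for BxPC-3, so line and dose cannot be told apart in this test. All 5 members tested passed with a negative value, beside 38.0% of 12210 genes called in either direction, 23.6% with a positive and 14.4% with a negative value (after median-of-ratios scaling 16.6% and 21.3%, after upper-quartile scaling 15.3% and 23.8%). MUC5AC and MUC13 passed the minimum only through CFPAC-1, and MUC5B only through CFPAC-1 and BxPC-3-GR together. A high value in CFPAC-1 or BxPC-3-GR makes this difference more negative, so the number of members is a description. MUC5AC differed most (-3.63, 95% interval -4.18 to -3.08, adjusted p = 2.25e-07), higher in 1 resistant line and lower in the other. MUC5B had -2.06 (-2.46 to -1.67), MUC1 -1.89 (-2.33 to -1.46), MUC16 -1.63 (-2.16 to -1.10) and MUC13 -1.31 (-1.58 to -1.05), with adjusted p between 1.24e-06 and 8.64e-05. MUC16 was upregulated in both lines and by less in CFPAC-1-GR. With the correction for GC content and length MUC1 was at -0.82, under the criterion, and the other 4 stayed past it. With a minimum mean of 0.1 FPKM, MUC4 had -0.98 (-1.19 to -0.76) and MUC2 -0.02 (-0.19 to 0.15). MUC2 was near the floor in CFPAC-1 and CFPAC-1-GR (means 0.0268 and 0.0292 FPKM). On log2(FPKM + 1) its change there is held near 0, so its value does not show an equal response.

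The enzymes that build the glycans on mucins were read next. Initiating GalNAc transferases attach the innermost sugar to serine or threonine, and in BxPC-3-GR the log2FC of the 12 tested of 17 ran from -0.76 (GALNT1) to 0.89 (GALNT3), all under the criterion of 1, with a median of 0.07 beside -0.05 for all genes. Of the core and capping enzymes, 2 of 12 tested were upregulated, beside 4.14% of all genes, with a median of 0.28. ST6GALNAC1, which caps the innermost sugar with sialic acid and makes the sialyl-Tn antigen, went from 0.551 ± 0.0598 FPKM to 4.42 ± 0.374 (n = 3, log2FC 1.81, adjusted p = 1.01e-05). ST3GAL4, another sialyltransferase, went from 1.10 to 4.15 FPKM (log2FC 1.30). Of 16 other mucins listed, 3 were tested and MCAM, a cell adhesion protein also named MUC18, was upregulated (0.149 ± 0.0325 to 3.64 ± 0.427 FPKM, log2FC 2.01).

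Genes of mucus secretion, with 8 of 18 tested, had 2 upregulated and 2 downregulated in BxPC-3-GR, beside 4.14% and 3.62% of all genes. AGR2, a disulfide isomerase needed for the folding of intestinal mucin, went from 23.9 ± 2.04 to 103 ± 14.7 FPKM (log2FC 2.05, adjusted p = 4.56e-05). ERN2, an endoplasmic reticulum stress sensor of mucous cells, went from 0.328 to 2.76 FPKM (log2FC 1.50). The chloride channel ANO1 fell from 66.1 ± 1.76 to 10.6 ± 1.12 FPKM (-2.53, adjusted p = 5.54e-06). The trefoil peptide TFF1 had -1.05 (adjusted p = 0.0357), a call that was lost with the GC correction (-0.97). Of 12 regulators tested of 21, the transcription factor SOX2 was upregulated (7.90 ± 0.247 to 74.4 ± 3.85 FPKM, 3.08) and SPDEF, a driver of goblet cell differentiation, downregulated (16.9 ± 1.49 to 7.04 ± 0.555 FPKM, -1.15).

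Of the membrane mucin partners and proteases, 3 of 18 tested were upregulated and 1 downregulated in BxPC-3-GR, beside the same shares of all genes, with a median of 0.23. MSLN (mesothelin), the cell surface protein that binds MUC16, went from 0.188 ± 0.0386 to 3.85 ± 0.558 FPKM (2.02, adjusted p = 2.03e-05). ERBB2, the receptor that MUC4 associates with, went from 2.80 ± 0.264 to 7.90 ± 1.15 FPKM (1.22). MSN (moesin), a linker of membrane proteins to actin, fell from 268 ± 5.61 to 95.3 ± 2.20 FPKM (-1.48).

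In CFPAC-1-GR, where 32.2% of all genes were called, the same lists were read with and without the correction for GC content and length. GalNAc transferases had 3 upregulated and 1 downregulated of 12, with a median of 0.44 beside 0.13 for all genes, among them GALNT1 (1.76, corrected 0.51), GALNT7 (1.35, corrected 0.10) and GALNT9 (-1.17, corrected -0.65). With GALNT3 (1.27, corrected 0.25), these 4 were under the criterion after the correction, under which 8.66% of all genes were called, and GALNT18 (0.51) was at 1.10. Core and capping enzymes had 1 upregulated and 3 downregulated of 16. C1GALT1, which makes the core 1 glycan, was at 1.59 and 0.21 after the correction. ST6GALNAC1 went from 4.86 ± 0.299 to 0.993 ± 0.169 FPKM (-1.56, corrected -1.31), and the difference of its response between the lines was -3.36 (adjusted p = 2.28e-09). The extension enzyme B3GNT3 had -1.62 (corrected -0.83) and ST6GALNAC4, a further sialyltransferase, -1.53 (corrected -0.56).

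TFF1 was the downregulated gene of 11 secretion genes tested in CFPAC-1-GR (-1.35, corrected -0.70), and AGR2 had 0.09. Of 15 regulators, 2 were upregulated and 4 downregulated, among them HIF1A (2.08), ATF1 (1.14) and FOXA3 (-1.39), which were at 0.83, 0.03 and -0.48 with the correction. Of 18 partners and proteases, 6 were upregulated and 3 downregulated, among them the sheddase ADAM10 (2.03, corrected 0.53), the receptor MET (1.86, corrected 0.86) and the galectin LGALS1 (-1.85, corrected -0.89). The membrane protease MMP14 was at -2.00 and -1.34 after the correction. Among the other mucins, MCAM was at 1.13 (corrected 1.37) and CD164, a sialomucin, at 1.44 (corrected 0.08).

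The genes beside the members were read for changes along the chromosome. The chromosome 11 cluster lies 2.83 to 3.06 Mb before RRM1, a ribonucleotide reductase subunit and target of GEM. The 8 nearest tested genes around the cluster, 4 on each side, had log2FC from -0.61 (TSPAN4) to 0.81 (CTSD) in BxPC-3-GR and from -0.83 (TSPAN4) to 0.67 (TOLLIP) in CFPAC-1-GR, all within the criterion of 1. The 8 around MUC4 and MUC20 had log2FC from -0.62 (TFRC) to 0.28 (TNK2) in BxPC-3-GR. Around MUC1, EFNA1, an ephrin ligand, was upregulated there, just past the criterion (adjusted p = 0.00122), and the other 7 ran from -0.44 (MTX1) to 0.52 (SLC50A1). Those around MUC13 ran from -0.57 (UMPS) to 0.82 (ITGB5 and HEG1) and those around MUC16 from -0.43 (HNRNPM) to 0.70. In CFPAC-1-GR, where 32.2% of all genes were called, neighbours of each of these loci passed the criterion. They ran from -1.28 (TNK2) to 1.79 (ACAP2) around MUC4 and MUC20, from -1.54 (DPM3) to 0.17 (THBS3) around MUC1, from -0.77 (ITGB5) to 2.20 (HEG1) around MUC13 and from -1.36 (RAB11B) to 1.76 (ZNF121) around MUC16.

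As a description over the 12 libraries, which come from 4 lines and share their differences, the members fell into patterns. MUC4 and MUC16 had a Pearson r of 0.982 on log2(FPKM + 1), MUC1 and MUC13 0.885, MUC1 and MUC5B 0.857, and MUC16 and MUC5AC 0.0183. The genes most like MUC16 were AGO4 and TRIM22 (r = 0.984) and TRIM21 (0.983), and those most like MUC1 were AFAP1 (0.993), GPRC5A (0.992) and EPHB3 (0.989). ZC3H12A (0.991), C1orf56 (0.99) and LY6K (0.988) were most like MUC13. RFX1 (0.984), NCKIPSD (0.982) and GRINA (0.981) were most like MUC5AC, and SGSM2, GGT1 and TJP3 (0.979 each) most like MUC5B.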

How the data were processed

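RNA of 4 lines with 3 libraries each was measured, and FPKM for 58302 genes, scaled to gene length and library depth, were deposited by the authors in 1 table. Their methods name GRCh38 with Ensembl 91, and the submitters' processing notes name Trimmomatic 0.27, FastQC 0.10.1, TopHat2 2.0.8 and the builds hg19 and GRCh38. The FPKM program, read layout and strand setting are not given in the sources used here. Positions, lengths and GC contents came from GENCODE 29 (58039 genes matched, and the loci of all 9 members were equal). With the summed length of distinct exons, 96.7% of 113554 low values (under 30 fragments) were whole fragments within 0.05, against 61% of 121502 with joined exons, and the depth was inferred from these. Counting intervals cover counting error only.

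Groups came from the sample records. limma 3.58.1 in R 4.3.3 (lmFit, eBayes) was run on log2(FPKM + 1) of the libraries compared, over all genes averaging 1 FPKM or more, with Benjamini-Hochberg adjustment over all of them. The study's methods name DESeq2 on counts, which was not used because the table holds FPKM. An exact permutation test of 3 against 3 libraries cannot go below p = 0.10. The members and gene lists were chosen with earlier results of these data known. All 9 members were named, with the 3 most correlated genes of each member with a mean of at least 1 FPKM over 12 libraries, and from each list up to 2 largest called increases and 2 largest called decreases per resistant line. Markers, genes beside the members and extremes of ranges were named outside this rule, as were AGR2 in CFPAC-1-GR, GALNT3, GALNT18, ST6GALNAC4 and the MUC20 copies, chosen after their values were seen. Alternatives were another pseudocount, filter, scaling or gene set, a GC content and length correction with 5 degrees of freedom, the replicate block, treat, 1 fit of all libraries and each library left out. The steps were tested on simulated data. Python 3.11.15, numpy 2.4.6, pandas 2.3.3, scipy 1.17.1 and matplotlib 3.10.9 were used for the remaining steps. Some genes that the rule names are not reported here. Every column of the table was used.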

Additional observations from a re-analysis of the deposited data

Results flagged for a closer look

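For 5 members, the change from the parental to the resistant line differed between the 2 pairs of lines in the test of that difference (limma, 12 libraries). The values, the log2FC of the CFPAC-1 lines minus that of the BxPC-3 lines, were -3.63 for MUC5AC, -2.06 for MUC5B, -1.89 for MUC1, -1.63 for MUC16 and -1.31 for MUC13. For MUC5AC the separate values were 1.40 in BxPC-3-GR (tested with a minimum mean of 0.1 FPKM) and -2.23 in CFPAC-1-GR. For MUC16 they were 3.61 and 1.98, for MUC1 1.88 and -0.01, for MUC5B 1.71 and -0.35, and for MUC13 0.72 (minimum mean of 0.1 FPKM) and -0.60. GC content moved with the changes in the CFPAC-1 lines, and with the correction for it the values were -3.03, -1.26, -0.82, -1.74 and -1.88 in the order of MUC5AC, MUC5B, MUC1, MUC16 and MUC13. MUC5AC and MUC13 passed the minimum mean of this test only through CFPAC-1, and MUC5B only through CFPAC-1 and BxPC-3-GR together. No group had enough libraries for a test of outlying samples.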

How the results depend on the processing

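Of 330 values of tested members under other settings, 312 kept their direction and call, 8 lost the call, 5 gained it and 5 reversed. Of 165 with 1 library left out, 161 kept both, 1 lost the call and 3 reversed. Both totals cover only fits in which the member was still tested. Calls lost because a member fell below the minimum mean are not among them. With a library left out, this befell MUC4 and MUC5B in BxPC-3-GR, MUC5B between the parental lines and MUC5AC between the resistant lines. Counts of members called moved as follows. In BxPC-3-GR the count of 4 ranged from 2 to 5 with a library left out, as members crossed the minimum mean, and from 4 to 6 over the other settings. In CFPAC-1 against BxPC-3 the count of 4 became 7 with a pseudocount of 0.1 and a minimum mean of 0.1 FPKM. It was also 7 with voom on implied fragments, and these 2 settings called 51.5% and 60.2% of all genes in place of 44.5%. The count was 3 with the GC content and length correction and 3 to 4 with a library left out. Between the resistant lines the count of 2 became 4 under the same 2 settings (28.4% and 34.7% of all genes in place of 17.1%), 1 with upper-quartile scaling, 0 with limma's treat, which tests whether the log2FC is beyond 1 in size (0 also before adjustment), and 1 to 2 with a library left out. In the test of the difference of response the count of 5 became 3 with treat and reached 6 under the same 2 settings. In CFPAC-1-GR the count was 2 to 3 under all settings run. The cause of these shifts was not tested.

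MUC1 in CFPAC-1-GR, from -0.45 to 0.84 over all settings, reversed with the GC content and length correction (0.84), with the replicate block and the correction (0.84), with the correction at a minimum mean of 0.1 FPKM (0.44), and with a library left out (-0.17 to 0.11, with 0.11, 0.029 and 0.088 above 0). MUC5B there reversed with the correction (0.14) and with the block and the correction (0.14). Scaling moved the median log2FC of all genes in CFPAC-1-GR from 0.127 to -0.139 (median-of-ratios) and -0.289 (upper-quartile), and the genes up- and downregulated from 2473 and 1407 to 1685 and 2338 and to 1377 and 2912. MUC16 and MUC5AC kept their directions and calls there. Over the settings run, the counts of list genes called in BxPC-3-GR were 1 to 6 for core and capping enzymes, 3 to 9 for secretion, 1 to 3 for regulators and 2 to 6 for partners and proteases, and in CFPAC-1-GR 3 to 9, 0 to 8, 0 to 9 and 1 to 12, with 0 to 4 for GalNAc transferases.

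Libraries with the same replicate number correlated between -0.143 and 0.0959 in their deviations from the group means. Each CFPAC-1-GR library correlated most with the BxPC-3-GR library of its number (0.0454, 0.0681 and 0.0212). In no other pair of lines did all numbers match in this way. Correlations this small do not show whether such libraries were prepared together. With the replicate block the counts of members called were 4 in BxPC-3-GR, 2 in CFPAC-1-GR, 4 between the parental lines, 2 between the resistant lines and 5 for the difference of response, with MUC16 at 3.61 in BxPC-3-GR. voom on implied fragments and the correction with the minimum mean of 0.1 FPKM were chosen after seeing the data. Over all genes, 909 were called in BxPC-3-GR and 3006 with voom, 2665 with the lower pseudocount and minimum, 1429 with the lower pseudocount alone and 380 with treat. In CFPAC-1-GR, 3880 were called and 8113, 8320 and 2059 under voom, the lower pseudocount and minimum, and treat, and 1042 with the correction. Between the parental lines the correction gave 3143 in place of 5274, and for the difference of response 2243 in place of 4643. Depth limits MUC20, MUC6 and, in the CFPAC-1 lines, MUC2.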
